A study of Rattus norvegicus with 6 samples.

Results

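ADAM and ADAMTS genes encode zinc metalloproteases, and they were followed here in crushed and intact rat sciatic nerve. The members were every gene of the expression table whose symbol was Adam, Adamts or Adamtsl followed directly by a digit, which gave 49 of 30957 genes (26 ADAM, 18 ADAMTS and 5 ADAMTS-like genes). The intact group held 3 libraries of uninjured contralateral sciatic nerve, and the crushed group held 3 libraries of crushed sciatic nerve. All 6 came from Sprague Dawley rats with no transgene or drug named. The labels gave neither time nor age, whereas the methods gave adult male rats, proximal stumps and collection 4 days after injury. The labels did not say which nerves came from the same rat, or whether nerves were pooled.

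ADAM proteins sit in the plasma membrane and release the outer parts of other membrane proteins, a process called ectodomain shedding. ADAM10 and ADAM17 are the main sheddases of cytokines, growth factors and Notch receptors, and ADAM17 also cleaves neuregulin 1, which controls myelination by Schwann cells. ADAMTS proteins are secreted and act on the extracellular matrix, including the chondroitin sulfate proteoglycans that restrain axon growth, whereas ADAMTS-like proteins share their ancillary domains but lack the protease domain. The comparison asked whether transcripts of the shedding genes Adam10 and Adam17 and of the matrix genes differed between crushed and intact nerves.

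Library totals ran from 24844371 to 27139360 counts, and a floor of 3 counts corresponded to 0.110 to 0.121 normalised CPM (counts scaled by library size and TMM factors). This floor covers counting error only. The labelled tissue was checked against cell markers. Defining Schwann cell and myelin markers were at or near 0 in all 6 libraries, with 0 to 1 count for Sox10, 0 to 3 for S100b and 0 to 1 for Mbp, and 0 for Cdh19 and Mag. Of 8 macrophage markers, 5 stayed at or under 3 counts, and Ptprc, Cd163 and Adgre1 were at 0 in every library. Proliferation genes were abundant, and Mki67 alone took 37037 to 43837 counts. These values go against the labelled tissue, and whether the deposited table belongs to these nerves was not settled. Crushed and intact nerves below are the libraries with those labels, and no cell composition is given for them. In bulk libraries, fewer cells of a type and less RNA per cell cannot be told apart.

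Of the 49 members, 21 had enough counts to be tested. Another 18 had 0 counts in every library, which allows up to 3 counts, and 8 had at most 3 counts in any library. The 18 at 0 were 11 ADAM genes, 6 ADAMTS genes and Adamtsl2. The 11 were Adam7, Adam28, Adam5, Adam3a, Adam18, Adam6, Adam24, Adam26a, Adam34l and Adam21, the last listed as 2 genes. The ADAMTS genes at 0 were Adamts3, Adamts12, Adamts16, Adamts18, Adamts19 and Adamts20. Adamts5, a major aggrecan-cleaving enzyme, was among the 8 with at most 3 counts, as were Adamts8, Adamts14, Adamts15, Adamts17 and Adam2. So were Adam22 and Adam23, protease-inactive members that bind LGI proteins at neural contacts. Adam11 and Adam30 were also below the filter, with 0 to 5 and 0 to 10 counts.

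Promoters are shown for the genes with a difference between the groups, and for the shedding genes set against them. Each is RefSeq sequence of build GRCr8, 5′ to 3′ along the gene, from 250 bases before the annotated start to 50 bases after. Capitals mark matches, on either strand, to a TATA box (TATAAA), a GC box (GGGCGG), an AP-1 site (TGANTCA), a cyclic AMP response element half-site (TGACG) or an E-box (CACGTG). Adamtsl1 had 4 windows in the table and the most upstream is printed.
Adamtsl1: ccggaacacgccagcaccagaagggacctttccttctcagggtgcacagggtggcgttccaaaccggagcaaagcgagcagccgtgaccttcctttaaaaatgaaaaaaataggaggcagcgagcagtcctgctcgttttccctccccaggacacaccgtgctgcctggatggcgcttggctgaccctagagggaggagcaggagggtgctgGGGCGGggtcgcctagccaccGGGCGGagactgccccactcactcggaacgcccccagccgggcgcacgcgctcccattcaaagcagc
Adamtsl4: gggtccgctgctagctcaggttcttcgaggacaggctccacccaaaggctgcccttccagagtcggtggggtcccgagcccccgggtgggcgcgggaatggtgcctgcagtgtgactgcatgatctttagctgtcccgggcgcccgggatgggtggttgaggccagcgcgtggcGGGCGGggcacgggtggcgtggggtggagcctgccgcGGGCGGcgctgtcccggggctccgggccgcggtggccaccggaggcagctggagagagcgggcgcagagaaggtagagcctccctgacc
Adamts1: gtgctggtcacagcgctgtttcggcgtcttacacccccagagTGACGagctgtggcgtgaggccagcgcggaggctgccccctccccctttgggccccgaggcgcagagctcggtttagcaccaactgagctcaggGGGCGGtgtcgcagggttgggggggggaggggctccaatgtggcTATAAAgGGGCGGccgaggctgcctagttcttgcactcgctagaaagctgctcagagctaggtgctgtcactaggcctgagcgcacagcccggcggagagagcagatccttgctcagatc
Adamts4: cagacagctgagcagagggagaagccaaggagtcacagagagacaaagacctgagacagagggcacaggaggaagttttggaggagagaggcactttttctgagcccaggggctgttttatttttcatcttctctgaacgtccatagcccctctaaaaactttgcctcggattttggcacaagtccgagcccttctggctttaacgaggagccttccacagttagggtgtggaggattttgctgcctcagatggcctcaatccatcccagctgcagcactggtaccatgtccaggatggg
Adam10: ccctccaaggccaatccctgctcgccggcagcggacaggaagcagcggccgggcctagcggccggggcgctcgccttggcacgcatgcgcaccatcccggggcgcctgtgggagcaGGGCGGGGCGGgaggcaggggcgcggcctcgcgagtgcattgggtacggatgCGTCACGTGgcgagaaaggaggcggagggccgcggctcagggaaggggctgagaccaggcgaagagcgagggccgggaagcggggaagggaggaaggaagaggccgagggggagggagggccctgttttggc
Adam17: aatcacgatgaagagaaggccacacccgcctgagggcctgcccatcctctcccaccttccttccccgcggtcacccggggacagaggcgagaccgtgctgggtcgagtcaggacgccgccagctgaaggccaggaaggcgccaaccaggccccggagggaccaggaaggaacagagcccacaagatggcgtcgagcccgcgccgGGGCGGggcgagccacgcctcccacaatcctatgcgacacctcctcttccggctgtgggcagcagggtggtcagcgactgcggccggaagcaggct
In GRCr8 coordinates these windows were chr5:105010266-105010565 on the plus strand (Adamtsl1), chr2:185935747-185936046 on the minus strand (Adamtsl4), chr11:38427335-38427634 on the minus strand (Adamts1), chr13:86202761-86203060 on the plus strand (Adamts4), chr8:80226612-80226911 on the plus strand (Adam10) and chr6:46649295-46649594 on the minus strand (Adam17).

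The Adamts1 window held a TATA box, GC boxes and a half-site. Adamts4 held none of these 5 motifs. GC boxes were the only motif in the printed windows of Adamtsl1, Adamtsl4 and Adam17, and in the Adam10 window the E-box and the half-site overlapped. A further Adamtsl1 window, not printed, held TATA boxes and half-sites and no GC box. A member was counted for a motif where any of its windows held it. Of the 18 tested members with a promoter in the RefSeq table, 13 held a GC box, against 33.1% of 33469 promoters of the same length. The shares of all promoters count single windows, from tested and untested genes alike, so they are not a like measure. A TATA box was found in 4 of the 18 (14.2% of all promoters), a half-site in 3 (21.2%), an AP-1 site in 1 (7.33%) and an E-box in 1 (6.42%). The GC content of the 6 printed windows ran from 52.3% for Adamts4 to 73.3% for Adam10, and the median of all promoters was 51.7%. These matches are descriptions of the letters only.

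Levels were compared between genes as FPKM, which is scaled for gene length. Adam12 (meltrin alpha, a membrane ADAM of mesenchymal and muscle cells) had the highest mean over the 6 libraries at 58.3 FPKM. The shedding genes came next, with Adam10 at 32.9 FPKM and Adam17 at 30.6 FPKM. Adam12 lay above Adam10 in every library, while the ranges of Adam10 and Adam17 overlapped. Adam9, Adam33, Adam15 and Adam19 followed at 17.1, 15.5, 13.8 and 12.7 FPKM, and of these neighbours only the ranges of Adam33 and Adam15 stood apart.

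Among matrix genes the order was led by Adamts6, a protease tied to fibrillin microfibrils, at 10.9 FPKM. Adamtsl1 had 9.97 FPKM, Adamtsl4 9.71 FPKM, Adamtsl5 9.11 FPKM and Adamts10 8.19 FPKM, and the range of each overlapped that of the next in order. Adamts1 stood apart from both neighbours at 4.29 FPKM. Adamts7, Adamts9 and Adamts4 had 1.91, 1.75 and 1.33 FPKM. The range of Adamts9 overlapped those of Adamts7 and Adamts4, which stood apart from each other. The lowest tested members were Adam4, Adam8 and Adam32 at 0.522, 0.508 and 0.445 FPKM, and Adamts2 and Adamtsl3 at 0.144 and 0.0824 FPKM.

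**Figure D1:**
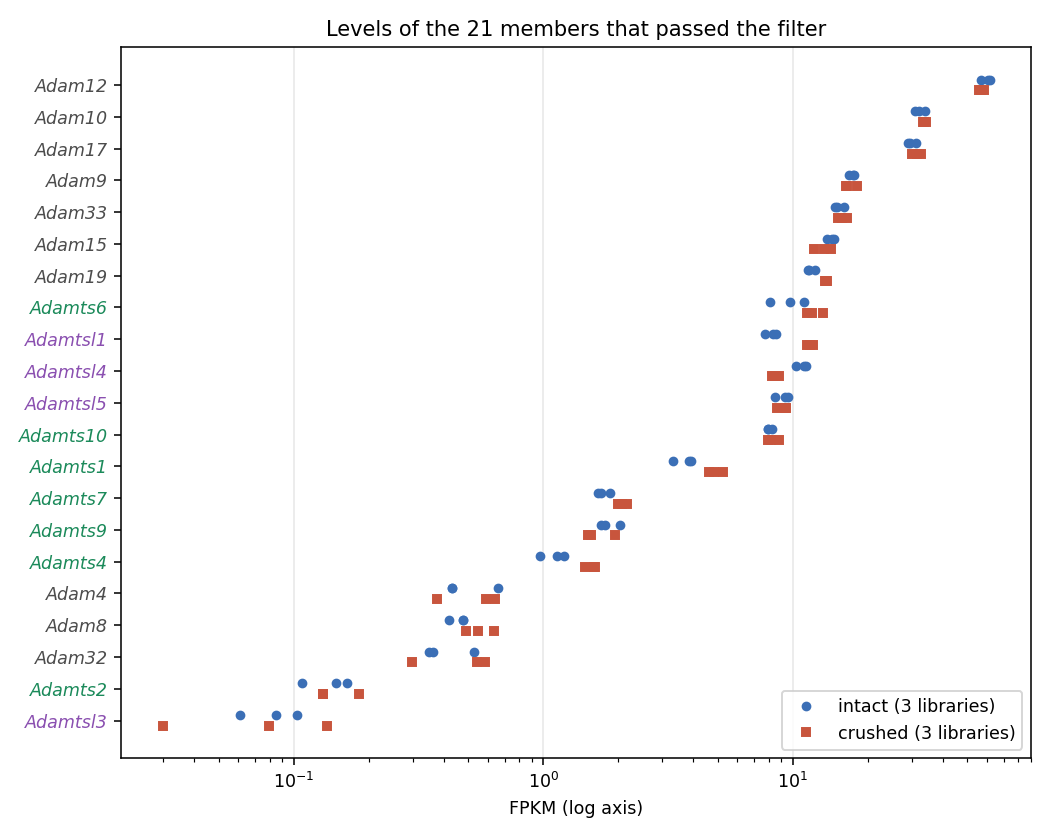
FPKM of the tested members in the 3 intact and 3 crushed libraries, on a log axis, ordered by mean level. Adam12 is at the top at 58.3 FPKM on average and Adamtsl3 is lowest at 0.0824 FPKM.

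Summed over members, the shedding pair had 62.0 ± 2.59 FPKM in intact nerves and 65.0 ± 1.11 FPKM in crushed nerves (SD, n = 3 each). The 24 other ADAM genes had 119.7 ± 3.16 and 118.4 ± 1.79 FPKM. ADAMTS genes summed to 24.96, 25.5 and 28.2 FPKM in the intact libraries and to 30.6, 29.7 and 32.4 FPKM in the crushed libraries, so the groups did not overlap. Adamts6 carried 36.7 ± 3.63% of that sum in intact nerves and 39.4 ± 1.17% in crushed nerves. ADAMTS-like genes summed to 28.2, 28.5 and 28.3 FPKM in the intact libraries and to 29.9, 29.3 and 29.1 FPKM in the crushed libraries. These sums did not overlap between the groups either, and neither did 23.0% of all single genes tested. The ratio of the ADAMTS sum to the shedding sum was 0.415, 0.419 and 0.435 in intact nerves and 0.478, 0.459 and 0.489 in crushed nerves. It is given as a description, without a test.

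Of the 11 tested ADAMTS and ADAMTS-like genes, 4 passed the test, 3 of them higher and 1 lower in crushed nerves, and neither shedding gene passed it. At a Benjamini-Hochberg adjusted p below 0.05 in edgeR's quasi-likelihood test, 4 of the 21 tested members differed (19.0%), against 3.12% of the 12393 genes tested. Adamtsl1, Adamts4 and Adamts1 rose and Adamtsl4 fell. Of all genes tested, 1.47% rose and 1.65% fell. By subfamily, 0 of 10 ADAM genes, 2 of 7 ADAMTS genes and 2 of 4 ADAMTS-like genes were called; 1 of the 10 ADAM genes, Adam19, had an unadjusted p below 0.05, and DESeq2 called it. Whether the subfamilies differ from each other was not tested. The 3 libraries of each group did not overlap for 8 of the 21 members (38.1%), against 23.0% of all genes tested. The median log2 fold change, crushed minus intact, was 0.05 for ADAM, 0.24 for ADAMTS and -0.04 for ADAMTS-like members, and -0.0017 for all genes tested.

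No member passed the limits of the study (an absolute log2 fold change above 1 with an unadjusted p below 0.001), which 0.282% of all genes tested passed. At an unadjusted p below 0.05, 7 of 21 members were found in edgeR's test, against 16.2% of all genes tested.

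**Figure D2:**
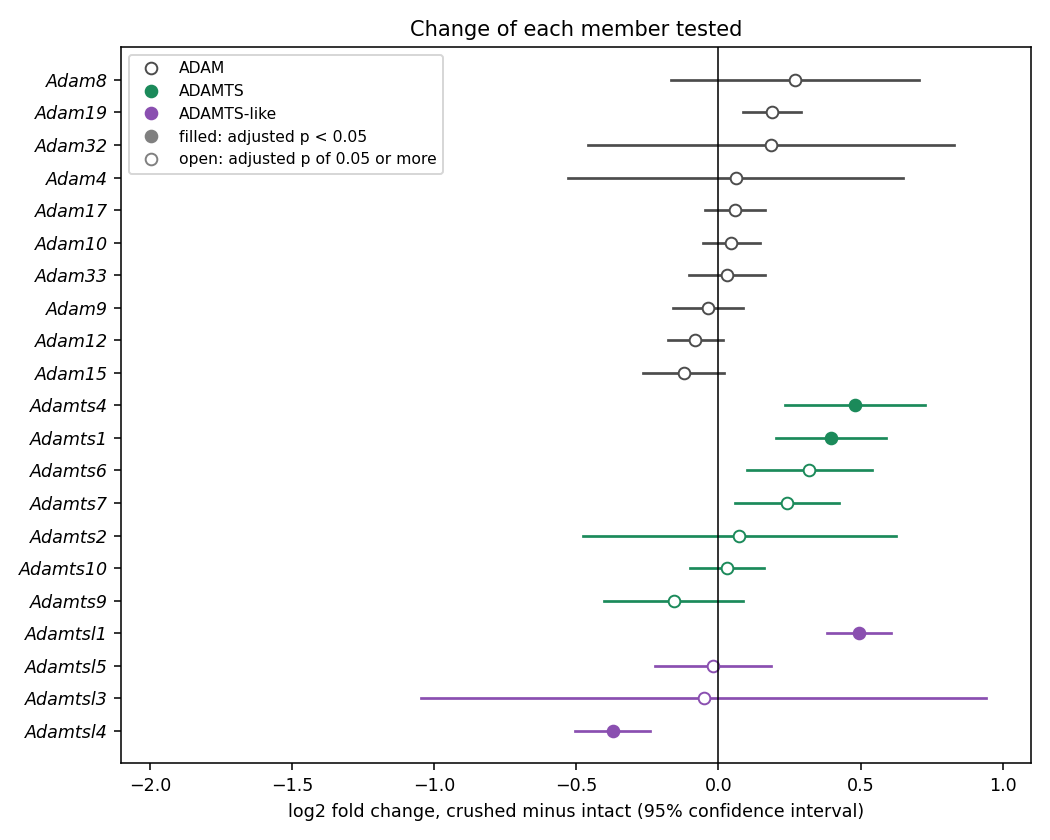
Log2 fold change of each tested member, crushed minus intact, with its 95% confidence interval, coloured by subfamily and filled where the adjusted p was below 0.05. The filled points are Adamts4 (0.48), Adamts1 (0.40), Adamtsl1 (0.49) and Adamtsl4 (-0.37), and Adam10 (0.05) and Adam17 (0.06) lie near 0.

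Adamtsl1 (chromosome 5, 104362971 to 104753863 in Rnor_6.0, the build of all gene positions below), a secreted matrix glycoprotein also named punctin, showed the clearest rise. The intact libraries held 1758, 1700 and 1765 counts against 2626, 2543 and 2481 in the crushed libraries. All 3 crushed libraries were above all intact libraries. The level went from 68.4 ± 3.54 to 96.3 ± 2.68 normalised CPM (SD, n = 3), a log2 fold change of 0.49 (SE 0.0512, 95% confidence interval 0.38 to 0.61), with an adjusted p of 0.000335 in edgeR's test.

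Adamtsl4 (chromosome 2, 197803584 to 197814808), which binds fibrillin 1 and supports microfibril assembly, moved the other way. Intact libraries held 1198, 1225 and 1059 counts, and crushed libraries 989, 954 and 857. The crushed libraries were all lower. Normalised CPM went from 45.5 ± 2.43 to 35.2 ± 1.01 (SD, n = 3), a log2 fold change of -0.37 (SE 0.0596, 95% confidence interval -0.50 to -0.24), with an adjusted p of 0.00642 in edgeR's test. Adamtsl1 and Adamtsl4 were called under all 11 alternative settings.

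Adamts1 (chromosome 11, 25342126 to 25350974), an enzyme that cleaves versican and aggrecan, was counted 439, 385 and 421 times in the intact libraries and 625, 577 and 507 times in the crushed libraries. The groups did not overlap. The level rose from 16.3 ± 1.501 to 21.5 ± 1.34 normalised CPM (SD, n = 3), a log2 fold change of 0.40 (SE 0.0874, 95% confidence interval 0.20 to 0.59), with an adjusted p of 0.0358 in edgeR's test. Its call was lost without intact replicate 2 (0.102), intact replicate 3 (0.0597), crushed replicate 1 (0.160), crushed replicate 2 (0.112) or crushed replicate 3 (0.0695), each an adjusted p from edgeR.

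Adamts4 (chromosome 13, 89622632 to 89634419), a further proteoglycan-cleaving enzyme known as aggrecanase 1, was counted 175, 145 and 159 times in the intact libraries and 225, 244 and 227 times in the crushed libraries. Again every crushed library was above every intact library. Normalised CPM rose from 6.28 ± 0.721 to 8.76 ± 0.454 (SD, n = 3), a log2 fold change of 0.48 (SE 0.111, 95% confidence interval 0.24 to 0.73), with an adjusted p of 0.0448 in edgeR's test. Without intact replicate 2 or 3 the adjusted p from edgeR was 0.127 or 0.0880, and without crushed replicate 1, 2 or 3 it was 0.1004, 0.161 or 0.151.

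**Figure D3:**
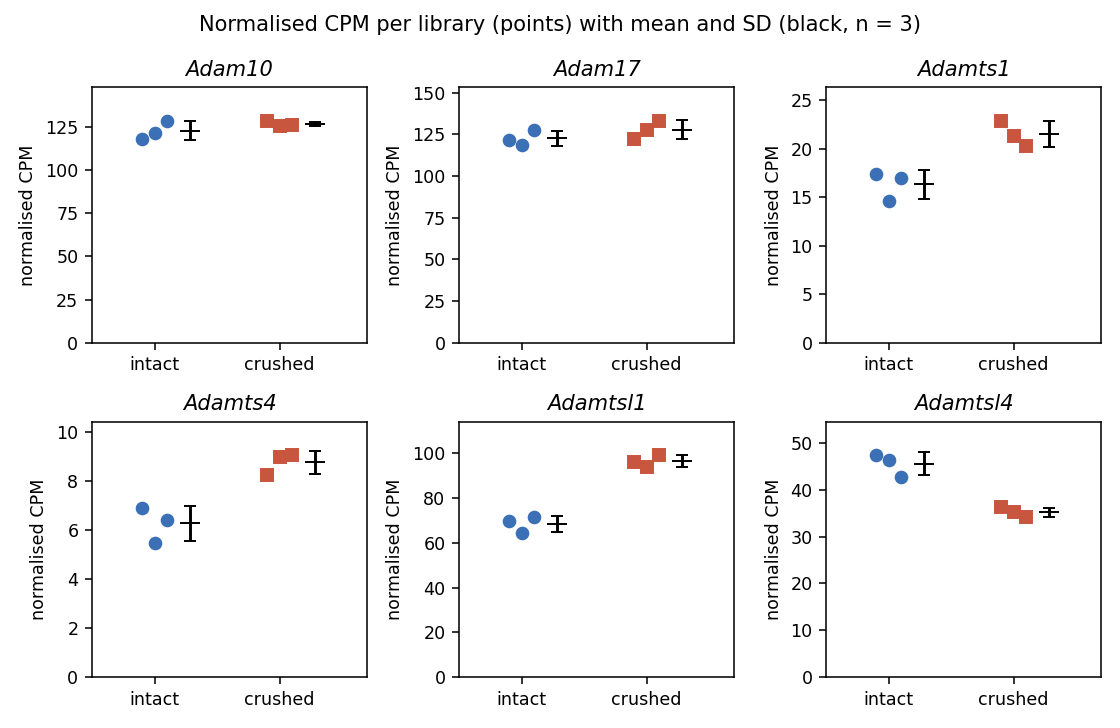
Normalised CPM of 6 members in each library, with intact nerves in blue, crushed nerves in red and the mean with SD in black (n = 3), on axes that start at 0. Adamts1, Adamts4 and Adamtsl1 are higher in every crushed library, Adamtsl4 is lower in every crushed library, and the groups overlap for Adam10 and Adam17.

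Adam10 (chromosome 8, 77107536 to 77237483), the sheddase of Notch receptors and of the amyloid precursor protein, was counted 2981, 3210 and 3188 times in the intact libraries and 3503, 3414 and 3159 times in the crushed libraries. In normalised CPM it had 122.7 ± 5.52 and 126.7 ± 1.37 (SD, n = 3), and the groups overlapped. The log2 fold change was 0.05 (SE 0.0446), with an adjusted p of 0.661 in edgeR's test and 0.4 in an exact two-sided permutation test, whose smallest possible p was 0.1. The 95% confidence interval of the fold ran from 0.964 to 1.11.

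Adam17 (chromosome 6, 43400528 to 43448280), the enzyme that releases tumour necrosis factor, was counted 3073, 3133 and 3158 times in the intact libraries and 3332, 3472 and 3339 times in the crushed libraries. Once scaled, these were 122.6 ± 4.47 and 127.7 ± 5.63 normalised CPM (SD, n = 3), and the groups overlapped. The log2 fold change was 0.06 (SE 0.0479), with an adjusted p of 0.587 in edgeR's test and 0.2 in the exact two-sided permutation test. The fold had a 95% confidence interval of 0.968 to 1.12, so a change of the size seen for Adamtsl1 lay outside the intervals of both shedding genes. Neither shedding gene was called under any of the 11 alternatives.

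Adam19 (meltrin beta, a membrane protease that can cleave neuregulin 1; chromosome 10, 31146107 to 31240582) came closest to the threshold among the ADAM genes. It was counted 1975, 1935 and 1805 times in the intact libraries and 2306, 2338 and 2136 times in the crushed libraries. The groups did not overlap in normalised CPM, at 74.8 ± 2.87 and 85.3 ± 0.837 (SD, n = 3). The log2 fold change was 0.19 (SE 0.0462), with an adjusted p of 0.0552 in edgeR's test, and DESeq2 gave 0.0371. Without intact replicate 1 the adjusted p from edgeR was 0.0137, and without any other 1 library it was 0.137 to 0.219. Of the 11 alternatives, 3 called Adam19.

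Adam12 was counted 4338, 4823 and 4584 times in the intact libraries and 4619, 4510 and 4375 times in the crushed libraries, and its normalised levels overlapped between the groups. Its log2 fold change was -0.08, with an adjusted p of 0.396 in edgeR's test. The other ADAM genes ranged from -0.12 for Adam15 to 0.27 for Adam8, a protease of myeloid cells, and 7 of the 10 ADAM fold changes were positive. Adam8 rested on 31 to 48 counts, and its groups did not overlap although the adjusted p from edgeR was 0.542. Adam4 and Adam32, known mainly from testis, had 25 to 40 and 21 to 41 counts.

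Adamts6 and Adamts7 (a protease that degrades cartilage oligomeric matrix protein) also lay higher in every crushed library without passing the test. Adamts6 was counted 728, 906 and 967 times in the intact libraries and 1140, 1083 and 1151 times in the crushed libraries. Its log2 fold change was 0.32, with an adjusted p of 0.129 in edgeR's test, 0.0378 in DESeq2 and 0.0355 in edgeR without intact replicate 3. The other 9 of the 11 alternatives did not call it, with an adjusted p of up to 0.355 (edgeR without crushed replicate 3). Adamts7 was counted 357, 340 and 311 times in the intact libraries and 408, 443 and 389 times in the crushed libraries, a log2 fold change of 0.24 with an adjusted p of 0.169 in edgeR's test. Both genes had positive log2 fold changes, as had Adamts10 (0.03) and the procollagen-processing gene Adamts2 (0.07). Adamts9 (-0.16), a secreted proteoglycanase, was the ADAMTS gene with a negative value. Adamtsl5 (-0.02) and Adamtsl3 (-0.05) were not called, and the 95% confidence interval of Adamtsl3, with 6 to 25 counts, was -1.05 to 0.94.

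**Figure D4:**
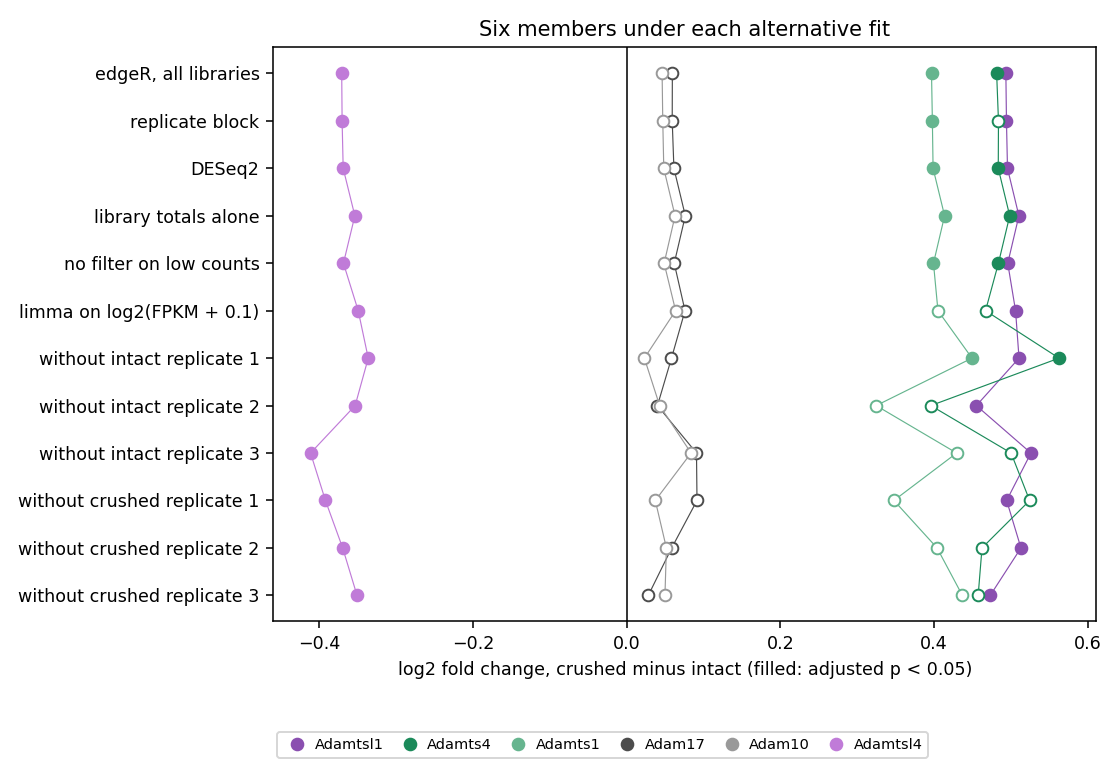
Log2 fold change, crushed minus intact, of Adamtsl1, Adamts4, Adamts1, Adam17, Adam10 and Adamtsl4 in edgeR with all libraries and under 11 alternatives, with filled points where the adjusted p was below 0.05. Adamtsl1 and Adamtsl4 are filled throughout, Adamts1 in 5 and Adamts4 in 4 of the 11 alternatives, and Adam10 and Adam17 in none.

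Genes that act with the proteases were listed by role, with earlier results of these data known. The list counts below stand beside 1.47% of all genes tested that rose and 1.65% that fell. Of 9 partners of ADAM10 and ADAM17, 7 were tested, 2 rose and 0 fell in edgeR's test. Rhbdf2 (iRhom2, which carries ADAM17 to the cell surface) rose from 14.6 ± 1.29 to 19.2 ± 1.43 normalised CPM (SD, n = 3), with a log2 fold change of 0.40 and an adjusted p of 0.0395. Tspan5, a tetraspanin that escorts ADAM10, rose from 131.7 ± 5.87 to 152.1 ± 4.22 normalised CPM, with a log2 fold change of 0.21 and an adjusted p of 0.0362. Leaving out intact replicate 2 or 3, or crushed replicate 1 or 2, ended either call, as did leaving out crushed replicate 3 for Tspan5, with adjusted p up to 0.163 for Rhbdf2 and 0.164 for Tspan5 in edgeR's test. Limma on FPKM called neither gene.

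Of 7 metalloprotease inhibitors, 5 were tested, 0 rose and 1 fell. Timp2 fell from 239.7 ± 8.12 to 203.4 ± 8.92 normalised CPM (SD, n = 3), a log2 fold change of -0.24 with an adjusted p of 0.0183 in edgeR's test. This call ended without intact replicate 2, crushed replicate 2 or crushed replicate 3, with an adjusted p of up to 0.0871. Limma on FPKM did not call Timp2 either, with an adjusted p of 0.0592. Timp3, the main inhibitor of ADAM17 and of aggrecanases, was at 0 counts in every library. Of 4 proprotein convertases, which remove the propeptide that keeps these proteases inactive, 3 were tested and 0 were called; Pcsk5 was the 1 with an unadjusted p below 0.05 (adjusted p 0.0744 in edgeR's test).

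Among 26 listed substrates of shedding ADAMs, 23 were tested, 6 rose and 0 fell. Cxcl16, a membrane-bound chemokine, was counted 1495, 1559 and 1217 times in the intact libraries and 3945, 3805 and 3800 times in the crushed libraries, a log2 fold change of 1.38 (SE 0.0696, adjusted p 2.56e-06 in edgeR's test). Icam1, a leukocyte adhesion molecule, had a log2 fold change of 0.82 (SE 0.0615, adjusted p 3.52e-05). For Cx3cl1 (fractalkine, another membrane-bound chemokine) it was 1.05 (SE 0.125, adjusted p 0.000918). These 3 calls held in every alternative. The other 3 that rose, Tgfa, Tnfrsf1b and App, had log2 fold changes of 0.31, 0.35 and 0.25. Tgfa (adjusted p 0.00118 in edgeR's test) was called in every alternative too. The call of Tnfrsf1b ended without crushed replicate 1 or 2, and that of App without intact replicate 2 or 3 or crushed replicate 1 or 2. Tnf itself, listed as 2 genes, had at most 2 counts in any library.

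Among 17 listed substrates of ADAMTS proteases, 8 were tested, 1 rose and 3 fell. Fbn1 (fibrillin 1, the main microfibril protein) rose from 788.2 ± 22.2 to 1223 ± 21.8 normalised CPM (SD, n = 3), a log2 fold change of 0.63 with an adjusted p of 4.06e-06 in edgeR's test. Col1a1 and Col3a1, fibrillar collagens, fell by 0.69 and 1.76 on the log2 scale (adjusted p 0.000662 and 0.0268). Col3a1 had 21 to 23 counts in intact nerves and 10, 3 and 7 counts in crushed nerves, and its call was lost under 8 of the 11 alternatives, including leaving out any 1 intact replicate and leaving out crushed replicate 2 or 3. Col5a1 fell by 0.17 on the log2 scale with an adjusted p of 0.0479 in edgeR's test, and lost its call under 10 of the 11 alternatives, including the omission of any 1 library. Versican (Vcan), a main substrate of Adamts1, had 44 to 84 counts and an adjusted p of 0.318 in edgeR's test. Its log2 fold change was 0.38 (95% confidence interval -0.00506 to 0.757), and every crushed library lay above every intact library in normalised CPM. None of the 4 LGI ligands of ADAM22 and ADAM23 could be tested. Over all lists, 13 of 46 tested genes were called (28.3%), against 3.12% of all genes tested, and 6 of the 13 were called in every alternative. The lists were chosen with earlier results of these data known, so these shares are a description only.

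**Figure D5:**
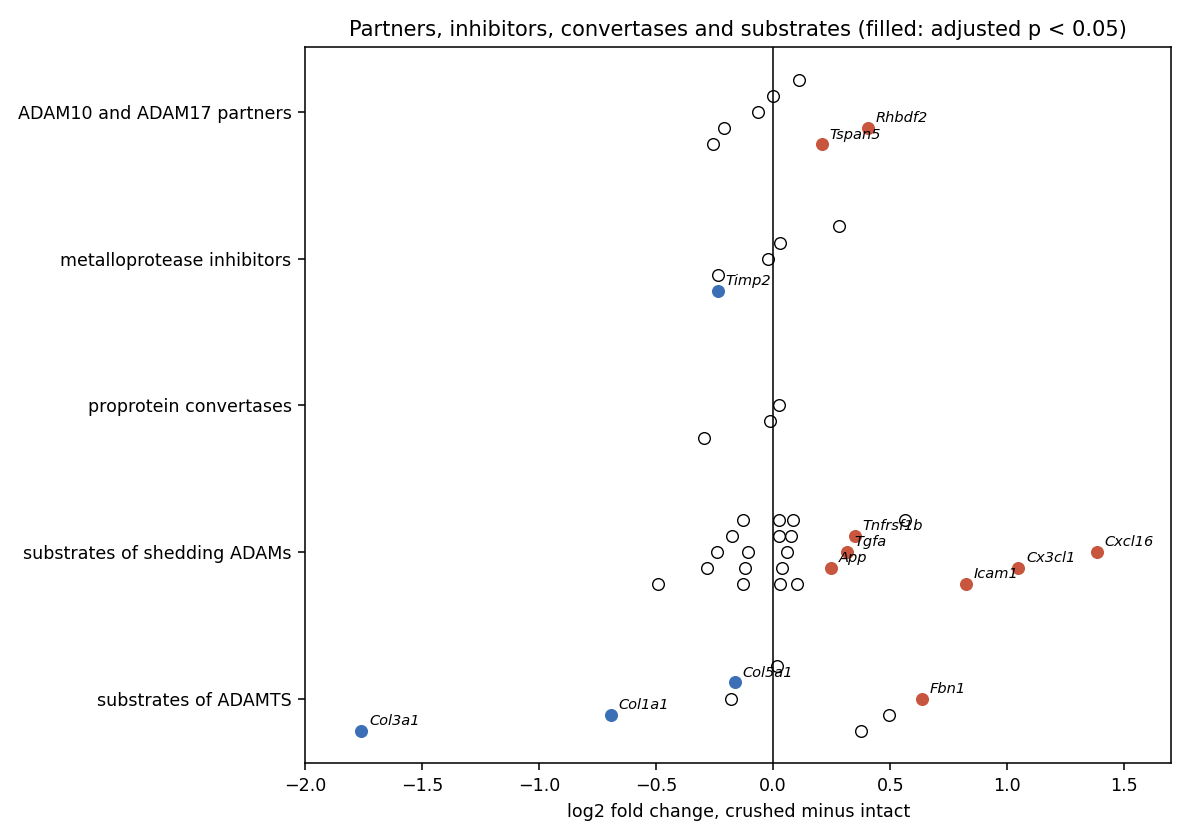
Log2 fold change, crushed minus intact, of tested partners, inhibitors, convertases and substrates of the proteases, 1 point a gene, with the vertical position within a list carrying no meaning. Filled points passed an adjusted p of 0.05 (red higher, blue lower); Cxcl16 (1.38) and Cx3cl1 (1.05) are highest and Col3a1 (-1.76) is lowest.

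Some cell markers differed between the groups, where 1.65% of all genes tested fell. No tested marker was called in the myelin (3 tested), endothelial (3), perineurial (3), axon and neuron (1), skeletal muscle (1) or proliferation (6) lists. Of 4 tested fibroblast markers among 8, 3 fell (Col1a1, Pdgfrb and Col3a1), and the summed level was 77.5 to 83.3 normalised CPM in intact nerves and 70.3 to 76.4 in crushed nerves. The fourth, Pdgfra, was the most abundant of the list at 46.6 ± 3.33 and 53.3 ± 2.78 normalised CPM (SD, n = 3), with a log2 fold change of 0.19 and an adjusted p of 0.166 in edgeR's test. Dcn, Lum and Col1a2 were at 0. Of 4 tested pericyte and smooth muscle markers among 6, Cspg4 fell, with summed levels of 210.2 to 225.6 and 171.1 to 174.8 normalised CPM, and Rgs5 was at 0. Of 2 tested Schwann cell markers, Erbb3 fell, with an adjusted p of 0.0222 in edgeR's test, and the summed levels were 7.09 to 8.68 and 5.35 to 5.86 normalised CPM. The part of these markers in the results for the proteases was not tested. The 2 tested macrophage markers of 8 were not called, and their list summed to 1.93 to 3.11 and 2.42 to 3.15 normalised CPM.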

How the data were processed

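RNA-seq was collected from crushed and intact sciatic nerves (3 libraries each). The authors deposited raw read counts per gene and FPKM values in 1 table. The submitters' processing notes name HISAT2, StringTie 1.3.0 and the build Rnor_6.0, without roles; the counter was not given in the sources used here. The methods name rRNA depletion and RNase R, which digests linear RNA, and the labels name another extraction kit; the effect on these counts was not tested. Counts were fitted in edgeR 4.0.16 (R 4.3.3; TMM factors, filterByExpr, quasi-likelihood test, two-sided, Benjamini-Hochberg over the 12393 genes kept of 30957). The deposited FPKM values were used for levels between genes, and on the log2 scale with a pseudocount of 0.1 in limma 3.58.1 as an alternative. Other alternatives were DESeq2 1.42.0, library totals alone, no filter on low counts, a replicate block and leaving out each library. The table was mapped to libraries by column names.

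Members, gene lists and tests were chosen with earlier results of these data known. Named by rule were Adam10 and Adam17, members with an adjusted p below 0.05, the most abundant member of each role and at most 3 genes in each direction from each list; other genes, such as Adam19, were named after their values were seen. Replicate libraries differed by more than counting noise (chi-square per degree of freedom 3.38 to 12.3). The labels do not tie libraries to animals beyond calling them biological replicates, so p-values measure the spread between these libraries. Promoters came from RefSeq (GRCr8; 30 of 48 member symbols matched), and no coordinate was converted between builds. An NF-kB motif was searched as well and matched 0 of 18 tested members (1.53% of all promoters). The fit was tested on simulated counts whose changes were larger than those of any tested member. That test does not show how often changes of the sizes reported here would be found.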

Additional observations from a re-analysis of the deposited data

How the results depend on the processing

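With 3 libraries a group, small changes of low members were beyond the depth, and the proteins and their activity were not measured. Members called at an adjusted p below 0.05 numbered 4 with all libraries, 2 in limma on log2(FPKM + 0.1) and 2 to 5 when 1 library was left out. Those that rose numbered 3, against 5 in DESeq2, 1 in limma and 1 to 4 with 1 library left out. Among the listed pathway genes, 9 rose (5 to 9 with 1 library left out) and 4 fell, against 2 under the replicate block, 1 in limma and 1 to 3 with 1 library left out. Members passing the limits of the study went from 0 to 3 when the fold limit was dropped. With 1 library left out, the median log2 fold change ran from 0.0156 to 0.0873 for ADAM members and from -0.167 to 0.158 for ADAMTS-like members. Leaving out 1 library turned the direction of 6 members, all far from the threshold, with log2 fold changes of -0.00105 to 0.0668 for Adam33, -0.0815 to 0.288 for Adam4, -0.00922 to 0.0607 for Adamts10, -0.108 to 0.196 for Adamts2, -0.601 to 0.353 for Adamtsl3 and -0.0600 to 0.0206 for Adamtsl5; the cause was not tested. The labels do not say whether same-numbered libraries came from the same rat. The correlations of their deviations were -0.00965, -0.00262 and 0.0709, and not every library correlated best with its own number. Under the replicate block 3 members were called, since Adamts4 had an adjusted p of 0.0838, Tspan5, Col3a1 and Col5a1 among the pathway genes were not called, and 300 genes were called in all, against 387.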

Other observations

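Several members lie next to each other in Rnor_6.0. Some of these neighbours differed widely in level, and others were alike at or near 0 counts. Adamts1 and Adamts5 are 60000 bp apart on chromosome 11 with no gene between them, yet Adamts1 had 385 to 625 counts and Adamts5 had 0 to 1 count. On chromosome 16, Adam9 and Adam32 are 1308 bp apart, with 1263 to 1521 and 21 to 41 counts. Adam5, Adam3a and Adam18 follow in the same stretch and had 0 counts in every library. Adamts15 and Adamts8, 18181 bp apart on chromosome 8, had 0 to 1 and 0 to 2 counts. Chromosome 16 held 10 of the 49 members, of which 2 were tested.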
